A study of Mus musculus with 4 samples.

Results

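The genes described here are 10 markers that separate epithelial from mesenchymal cells in the developing kidney. They are the cadherins Cdh1, Cdh2, Cdh6, Cdh11 and Cdh16, the adhesion molecule Epcam, the keratins Krt8, Krt18 and Krt19, and the intermediate filament gene Vim. They were chosen by gene symbol, and each symbol matched 1 of the 31053 genes in the count matrices of both libraries. No measured value of these libraries was used in that rule, although the 10 genes were chosen with earlier results of these data known. On GRCm38 the cadherin genes lie at chr8:106603350-106670247 (Cdh1), chr18:16588877-16809246 (Cdh2), chr15:13028699-13176407 (Cdh6), chr8:102632095-102785493 (Cdh11) and chr8:104601915-104624396 (Cdh16). Epcam lies at chr17:87635979-87651127, Krt8 at chr15:101996711-102004342, Krt18 at chr15:102028216-102032026, Krt19 at chr11:100140810-100145926 and Vim at chr2:13574311-13582826. Each is a protein-coding gene, and the values below are counts over the whole gene as the authors assigned them.

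Cadherins are calcium-dependent adhesion molecules that hold neighbouring cells together, and the cadherins a cell carries differ between tissues and stages. In the kidney, mesenchymal nephron progenitors gather around the tips of the ureteric bud, aggregate on induction and turn into a polarised epithelial vesicle, which then forms podocytes and the tubule segments. The ureteric bud is an epithelium from the start and becomes the collecting ducts, while the stroma between the tubules stays mesenchymal.

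Cells from whole kidneys of newborn mice, with debris and dead cells removed, went into droplet single-cell RNA sequencing, with 1 library per genotype. The floxed library came from the genotype given as Six2CreTet2/3f/f, with floxed alleles of the methylcytosine dioxygenase genes Tet2 and Tet3, and the control library from the genotype given as Six2Cre. Both genotypes carry the Six2-driven Cre recombinase, which acts in nephron progenitors and is inherited by the nephron cells they form, while ureteric and stromal cells lie outside that lineage. The sources used here do not say how many kidneys or animals went into a library, no difference between genotypes has a replicate check, and every interval below is a 95% interval that covers counting error only. The bisulfite libraries of sorted progenitors were not analysed here.

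There were 115427704 UMIs (unique molecular identifiers, each standing for 1 captured RNA molecule) over 22543 barcodes in the floxed library, and 197745868 UMIs over 25736 barcodes in the control library. The libraries shared 174 barcodes, 0.772% of the floxed and 0.676% of the control barcodes. Filtering left 14393 floxed cells (median 4776 UMIs) and 19493 control cells (median 5990 UMIs). Tet3, a targeted gene, stood at 42.5 CPM in floxed progenitor-like cells, against 90.7 CPM in control progenitor-like cells, and at 39.8 CPM in floxed stroma-like cells, against 49.9 CPM in control stroma-like cells. CPM is UMIs of a gene per 1000000 UMIs of the class in that library, and the counts come from the 3′ end of transcripts, which need not lie in the deleted part. Tet2 stood at 24.2 and 28.9 CPM in floxed and control progenitor-like cells, a ratio of 0.837 (0.733 to 0.954), so a 3′ count does not show whether Tet2 was deleted.

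Cells were grouped into clusters without using the 10 genes, and clusters were named from marker lists that do not hold them. Names carry the ending "-like", because they were rebuilt from expression. The names came from marker genes, so marker levels describe the classes and do not check the names. Six2, a progenitor transcription factor, stood at 89.8 CPM in floxed and 84.2 CPM in control nephron progenitor-like cells. In committed nephron-like cells it stood at 8.47 and 7.93 CPM in the floxed and control libraries. Lhx1, which marks induced nephron cells, stood at 725 and 679 CPM in floxed and control committed nephron-like cells. The nephron progenitor-like class held 1799 floxed and 2866 control cells, the committed nephron-like class 783 and 1148, and the podocyte-like class 612 and 1032. The proximal tubule-like class held 899 and 1276 cells, the loop of Henle and distal tubule-like class 618 and 526, the ureteric bud and collecting duct-like class 1012 and 838, and the stroma-like class 3530 and 4585. Erythroid markers were found in these classes too, with a sum of 4018 CPM in floxed and 1231 CPM in control progenitor-like cells, and all 6 genes were higher in the floxed library. Erythroid-like cells, which should lack epithelial genes, are therefore given below as 1 measure of the level that free RNA can give. Other classes can lie below that measure. Epcam stood at 86.3 and 76.2 CPM in floxed and control erythroid-like cells, against 35.8 and 33.1 CPM in stroma-like cells. A level under the erythroid-like one therefore does not show that a gene was not expressed.

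Epcam encodes an adhesion molecule of simple epithelia, and Vim encodes vimentin, the intermediate filament protein of mesenchymal cells. Across 26 clusters with at least 50 cells (both libraries summed), the log2(CPM + 1) values of these 2 genes had a Pearson correlation of -0.87, which is a description of clusters from the same 2 libraries. Krt8 encodes the type II keratin, and Krt18 the type I keratin, that pair into the filaments of simple epithelia. These keratin genes lie next to each other on mouse chromosome 15, and their values correlated at 0.96 over the same clusters. RefSeq windows of 250 bases before to 50 after the transcript start were matched for 5 of the 10 genes (Cdh6, Epcam, Krt8, Krt18 and Vim). The windows of the neighbouring keratin pair, and of the pair with opposite patterns, are shown because these genes carry the results below. The build is GRCm38.p6, and each window is written 5′ to 3′ on the gene's own strand: Krt8 at chr15:102004293-102004592 on the minus strand, Krt18 at chr15:102027966-102028265 on the plus strand, Epcam at chr17:87635729-87636028 on the plus strand, and Vim at chr2:13574061-13574360 on the plus strand. Capitals mark every match, on either strand, to 3 motifs. CACCTG is an E-box of the kind bound by Snail and Zeb repressors. The GC box is GGGCGG. The TATA box is TATAAA.
Krt8: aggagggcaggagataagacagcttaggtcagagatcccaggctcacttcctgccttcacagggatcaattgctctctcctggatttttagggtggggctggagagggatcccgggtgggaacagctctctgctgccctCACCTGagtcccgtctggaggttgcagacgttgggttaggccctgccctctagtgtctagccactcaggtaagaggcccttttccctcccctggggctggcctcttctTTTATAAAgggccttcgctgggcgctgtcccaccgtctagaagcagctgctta
Krt18: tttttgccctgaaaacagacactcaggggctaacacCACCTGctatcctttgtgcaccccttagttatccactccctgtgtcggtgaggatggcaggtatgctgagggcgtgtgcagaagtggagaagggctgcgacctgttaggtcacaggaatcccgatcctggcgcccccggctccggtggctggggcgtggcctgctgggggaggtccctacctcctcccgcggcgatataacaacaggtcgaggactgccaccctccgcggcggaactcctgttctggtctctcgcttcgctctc
Epcam: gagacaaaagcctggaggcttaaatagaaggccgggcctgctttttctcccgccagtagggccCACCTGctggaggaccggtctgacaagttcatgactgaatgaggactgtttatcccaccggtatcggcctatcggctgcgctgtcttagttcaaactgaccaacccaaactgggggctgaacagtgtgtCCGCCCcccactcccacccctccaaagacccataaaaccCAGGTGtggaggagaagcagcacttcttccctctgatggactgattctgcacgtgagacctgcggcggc
Vim: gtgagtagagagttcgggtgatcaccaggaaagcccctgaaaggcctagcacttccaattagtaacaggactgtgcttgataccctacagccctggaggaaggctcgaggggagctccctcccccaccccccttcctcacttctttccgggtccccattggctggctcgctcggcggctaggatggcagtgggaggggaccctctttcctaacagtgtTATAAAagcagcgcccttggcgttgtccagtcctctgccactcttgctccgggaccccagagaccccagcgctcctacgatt
The Epcam window held 2 matches to CACCTG and 1 to GGGCGG, and the Krt8 and Krt18 windows held 1 match to CACCTG each. The Krt8 window held 2 overlapping matches to TATAAA, one on each strand, and the Vim window 1. Of all 32851 windows in the table, 20.2% held CACCTG, 35.7% GGGCGG and 13.6% TATAAA. The Cdh6 window, at chr15:13173626-13173925 on the minus strand, held 2 overlapping matches to GGGCGG. The motif AACCGGTT, bound by grainyhead-like factors, had no match in these 5 windows and was found in 0.146% of all windows. A match is a description of the letters and not evidence of binding.

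The first comparison asked how the 10 genes differed between committed nephron-like and progenitor-like cells of the same library. In both libraries the epithelial genes Epcam, Cdh1, Cdh6, Cdh16, Krt8 and Krt18 were higher in committed cells, while Cdh11 and Vim were lower. A difference was counted when the higher level reached 25 CPM and the whole interval of the ratio lay beyond 1.5-fold. By this rule 6 genes were higher and 2 lower in the floxed library, of 9 that reached 25 CPM. Among control cells 6 were higher and 3 lower, of 9. Of all genes that reached 25 CPM, 14.7% passed in the floxed library (9.54% higher and 5.21% lower) and 16.9% in the control library (11.6% higher and 5.33% lower). Krt19, a keratin of ducts and other simple epithelia, did not reach 25 CPM in either class of either library. With a stricter filter on cells 5 genes passed in each library, and without the cells that held any UMI of a ureteric or collecting duct marker 3 passed in the floxed and 5 in the control library, over 49 and 60 committed cells. Those markers summed to 849 and 666 CPM in committed cells of the floxed and control libraries, against 273 and 257 CPM in progenitor-like cells, and their part in the differences was not tested. They also summed to 3203 and 3677 CPM in floxed and control cells of the loop of Henle and distal tubule-like class. The list therefore does not separate duct from distal nephron cells.

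Epcam stood at 512 CPM (496 to 529) in floxed committed cells, against 59.3 CPM (55.2 to 63.7) in floxed progenitor-like cells. In the control library it stood at 324 CPM (315 to 333) in committed cells, against 47.4 CPM (44.87 to 49.96) in progenitor-like cells. The ratios were 8.63 (7.99 to 9.34) in the floxed and 6.83 (6.43 to 7.26) in the control library. The progenitor-like level lay below the 86.3 and 76.2 CPM of erythroid-like cells in the floxed and control libraries and above the 35.8 and 33.1 CPM of stroma-like cells, so these classes do not settle whether it is above free RNA.

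Cdh1 encodes E-cadherin, the cadherin of mature epithelial junctions. It stood at 37.1 CPM in committed cells, against 7.75 CPM in progenitor-like cells of the floxed library, a ratio of 4.79 (3.805 to 6.07). In the control library it stood at 26.9 CPM in committed cells, against 5.76 CPM in progenitor-like cells, a ratio of 4.67 (3.89 to 5.63). The progenitor-like values lay below those of erythroid-like cells, at 8.57 and 8.90 CPM in the floxed and control libraries.

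Cdh6 encodes K-cadherin, which marks early nephron epithelium and the proximal tubule. It stood at 143 CPM in committed cells, against 48.8 CPM in progenitor-like cells of the floxed library, a ratio of 2.92 (2.65 to 3.23). In the control library it stood at 200 CPM, against 42.7 CPM, a ratio of 4.68 (4.38 to 5.01). Cdh16, which encodes the kidney-specific Ksp-cadherin, stood at 50.8 CPM in committed cells, against 20.2 CPM in progenitor-like cells of the floxed library, a ratio of 2.52 (2.15 to 2.95), and at 2.76 times the progenitor-like level in the control library (2.47 to 3.09). Both cadherins were therefore higher after commitment in each library.

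Krt8 was 3.04-fold (2.58 to 3.58) and Krt18 1.95-fold (1.69 to 2.26) higher in committed than in progenitor-like cells of the floxed library. In the control library the ratios were 2.74 (2.47 to 3.04) for Krt8 and 2.04 (1.83 to 2.28) for Krt18. These keratin levels were low: Krt18 stood at 52.5 and 45.2 CPM in floxed and control committed cells, against 49.6 and 34.3 CPM in erythroid-like cells of the same libraries.

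Cdh11 encodes cadherin-11, a cadherin of mesenchyme. It stood at 53.4 CPM in committed cells, against 219 CPM in progenitor-like cells of the floxed library, 4.09-fold lower (3.69 to 4.55), and it was 3.13-fold lower (2.91 to 3.37) in the control library. Vim was 2.33-fold lower (2.14 to 2.54) in committed cells of the floxed library and 2.72-fold lower (2.57 to 2.89) in those of the control library. The committed levels of both genes lay below those of erythroid-like cells, which held 152 and 100 CPM of Cdh11 and 275 and 227 CPM of Vim in the floxed and control libraries, and whether the erythroid-like cells express these genes themselves was not tested. Cdh2, which encodes N-cadherin, was 1.40-fold lower (1.252 to 1.57) in floxed and 1.71-fold lower (1.57 to 1.86) in control committed cells, and passed the rule in the control library alone.

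The size of this step was also compared between libraries, as the floxed minus the control log2 ratio. For Cdh6 the difference was -0.68 (-0.85 to -0.51), a smaller step in the floxed library. For Epcam it was 0.34 (0.20 to 0.48) and for Cdh11 -0.38 (-0.57 to -0.20), larger steps in the floxed library. For Vim it was 0.22 (0.08 to 0.37) and for Cdh2 0.29 (0.09 to 0.49), smaller steps downward. For Cdh1, Cdh16, Krt8 and Krt18 the intervals included 0. With the floxed nephron clusters weighted as in the control library, the difference was 0.09 for Epcam, -0.41 for Cdh6, -0.25 for Cdh11, 0.31 for Vim and 0.34 for Cdh2. At that make-up the differences were thus smaller for Epcam, Cdh6 and Cdh11 and larger for Vim and Cdh2. For Krt8 the reweighted difference was 0.39, against 0.15 as measured. It was -0.05 for Cdh1, -0.19 for Cdh16 and -0.06 for Krt18. These reweighted values have no intervals. Erythroid markers moved with the genotype on both sides of the step, with sums of 4429 CPM in floxed and 2211 CPM in control committed cells, and their part in these differences was not tested.

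**Figure D1:**
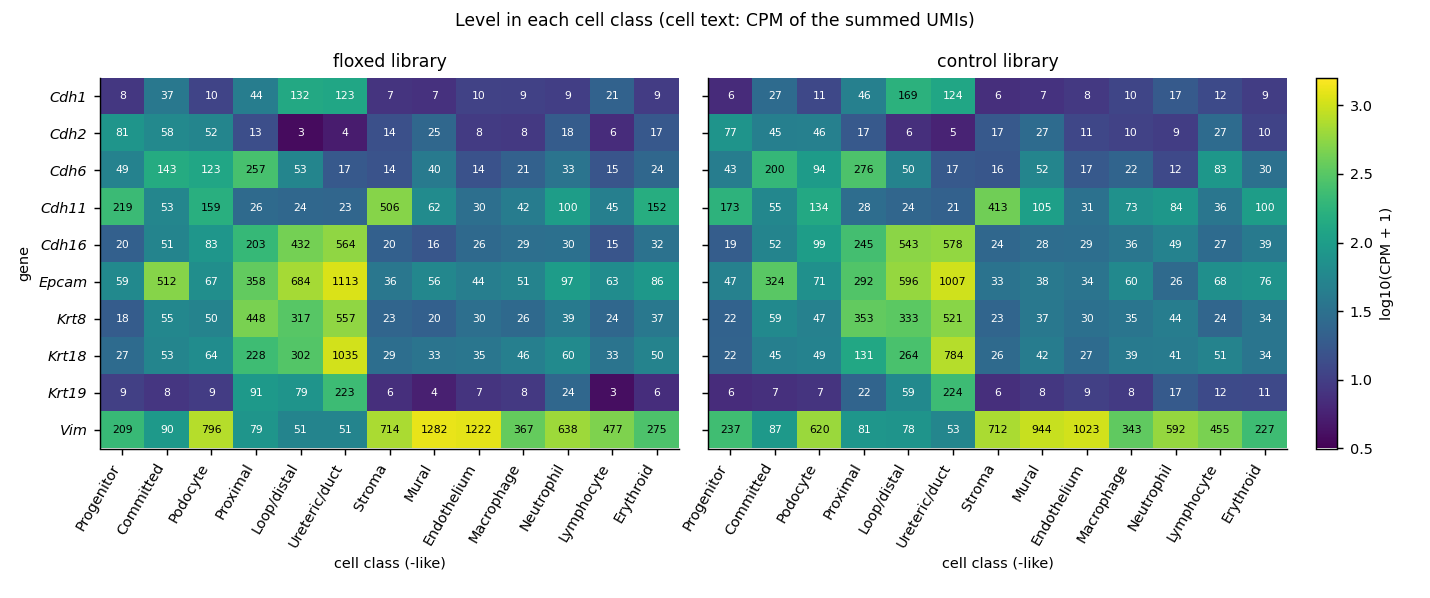
Heat map of the level of the 10 genes (rows) in 13 cell classes (columns), floxed library on the left and control library on the right; colour is log10(CPM + 1) and the number in each cell is CPM. Epcam, Cdh1, Cdh16 and the keratins were high in tubule, ureteric and collecting duct classes, and Vim and Cdh11 in the stroma-like class.

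A part of the junction genes was higher, and a part of the mesenchymal regulators lower, over the same step. Of 28 genes of junctions and polarity, 15 reached 25 CPM in each library, and 7 were higher in committed cells and none lower, beside 9.54% of all genes higher in the floxed and 11.6% in the control library. Claudin-encoding Cldn6 stood at 54.2 CPM in committed cells, against 5.53 CPM in progenitor-like cells of the floxed library, and at 38.0 against 4.25 CPM in the control library. The others named here, which passed in both libraries, were Cldn7, the polarity gene Crb3, the desmosome gene Dsp, the protease inhibitor gene Spint2 and Prom1, while Cldn3 passed in the floxed library alone and 1 gene not named here in the control library alone. The list's median log2 ratio was 0.67 in the floxed and 0.57 in the control library, beside 0.06 and 0.11 for all genes.

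Of 15 mesenchymal regulators and matrix genes, 7 of the 10 that reached 25 CPM were lower in committed cells of the floxed library, and 5 of 9 in the control library, beside 5.21% and 5.33% of all genes. Zeb1, which encodes a repressor of epithelial genes, the matrix genes Col1a2, Sparc and Tnc, and the muscle filament gene Des passed in both libraries, while Snai2 and Col1a1 passed in the floxed library alone. Zeb1 stood at 15.4 CPM in committed cells, against 66.3 CPM in progenitor-like cells of the floxed library, and at 13.99 against 62.6 CPM in the control library. The atypical cadherin gene Celsr1 was 2.83-fold higher in floxed and 2.59-fold higher in control committed cells. These lists, like the 10 genes, were kept out of the genes used for clustering.

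The nephron classes were divided again into 20 nephron clusters, of which 16 held at least 50 cells of each library. The division showed where along the stages each gene was found. Nephron cluster 3 was led by the progenitor genes Cited1 and Crym, cluster 4 by Col9a1, Bmper and the induction gene Wnt4, and cluster 12 by cell cycle genes. Clusters 1 and 6 were made mostly of committed cells. Of cluster 4, 583 of 595 floxed and 585 of 592 control cells were progenitor-like. Wnt4 stood at 1051 CPM in cluster 4 (both libraries summed), against 798 CPM in cluster 1. The progenitor-like class thus held cells with the induction gene. Cluster 0 mixed committed cells (191 floxed and 151 control) with cells of the loop and distal class (168 and 93), and cluster 11 was mostly of the proximal tubule-like class (101 of 125 floxed and 320 of 360 control cells). Cluster 1 was led by Fgf8 and Lhx1, cluster 6 by Sdk2 and Pmp22, cluster 11 by Osr2, and cluster 0 by Spon1 and Tfap2b.

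Epcam in the floxed library stood at 40.3 CPM in cluster 3, 67.5 in cluster 4, 348 in cluster 1 and 1181 in cluster 0. Control values were 38.2, 47.7, 281 and 1061 CPM in the same order. Levels in clusters 3 and 4 lay under the erythroid-like level, and those in clusters 1 and 0 above it. Cluster 6, also made mostly of committed cells, held 72.8 and 54.8 CPM in the floxed and control libraries, which is again under the erythroid-like level.

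Cdh1 stood at 35.5 and 22.1 CPM in cluster 1 and at 83.6 and 110 CPM in cluster 0 of the floxed and control libraries. Cdh6 had its highest nephron level elsewhere, at 401 and 503 CPM in the Osr2-led cluster 11 of the floxed and control libraries, and stood at only 49.6 and 65.2 CPM in cluster 0. In cluster 1 Cdh6 stood at 166 CPM in the floxed and 227 CPM in the control library. Epcam and Cdh1 were thus high in cluster 0, which shares cells with the distal class, and Cdh6 in cluster 11, which shares cells with the proximal class.

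Cdh2 stood at 96.4 and 92.9 CPM in cluster 4, 74.7 and 57.8 CPM in cluster 1, and 18.2 and 14.9 CPM in cluster 0 of the floxed and control libraries. Its level in cluster 0 was close to the 16.5 and 10.2 CPM of erythroid-like cells. Cdh11 stood at 173 and 154 CPM in cluster 4 and at 54.0 and 41.7 CPM in cluster 1. Both of these cadherins were thus lower in the clusters with more Epcam.

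Cluster 5, of progenitor-like cells but led by the stromal genes Penk, Ogn and Col3a1 among others, held 410 and 411 CPM of Vim in the floxed and control libraries. Vim stood at 195 CPM in floxed and 217 CPM in control cells of cluster 3, and at 81.7 and 76.9 CPM in cluster 1. It was higher again in cluster 7, led by Tagln and Akap12 and made mostly of podocyte-like cells, at 1028 CPM in the floxed and 841 CPM in the control library. Cluster 7 held 73.5 and 66.0 CPM of Epcam, which is under the erythroid-like level.

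**Figure D2:**
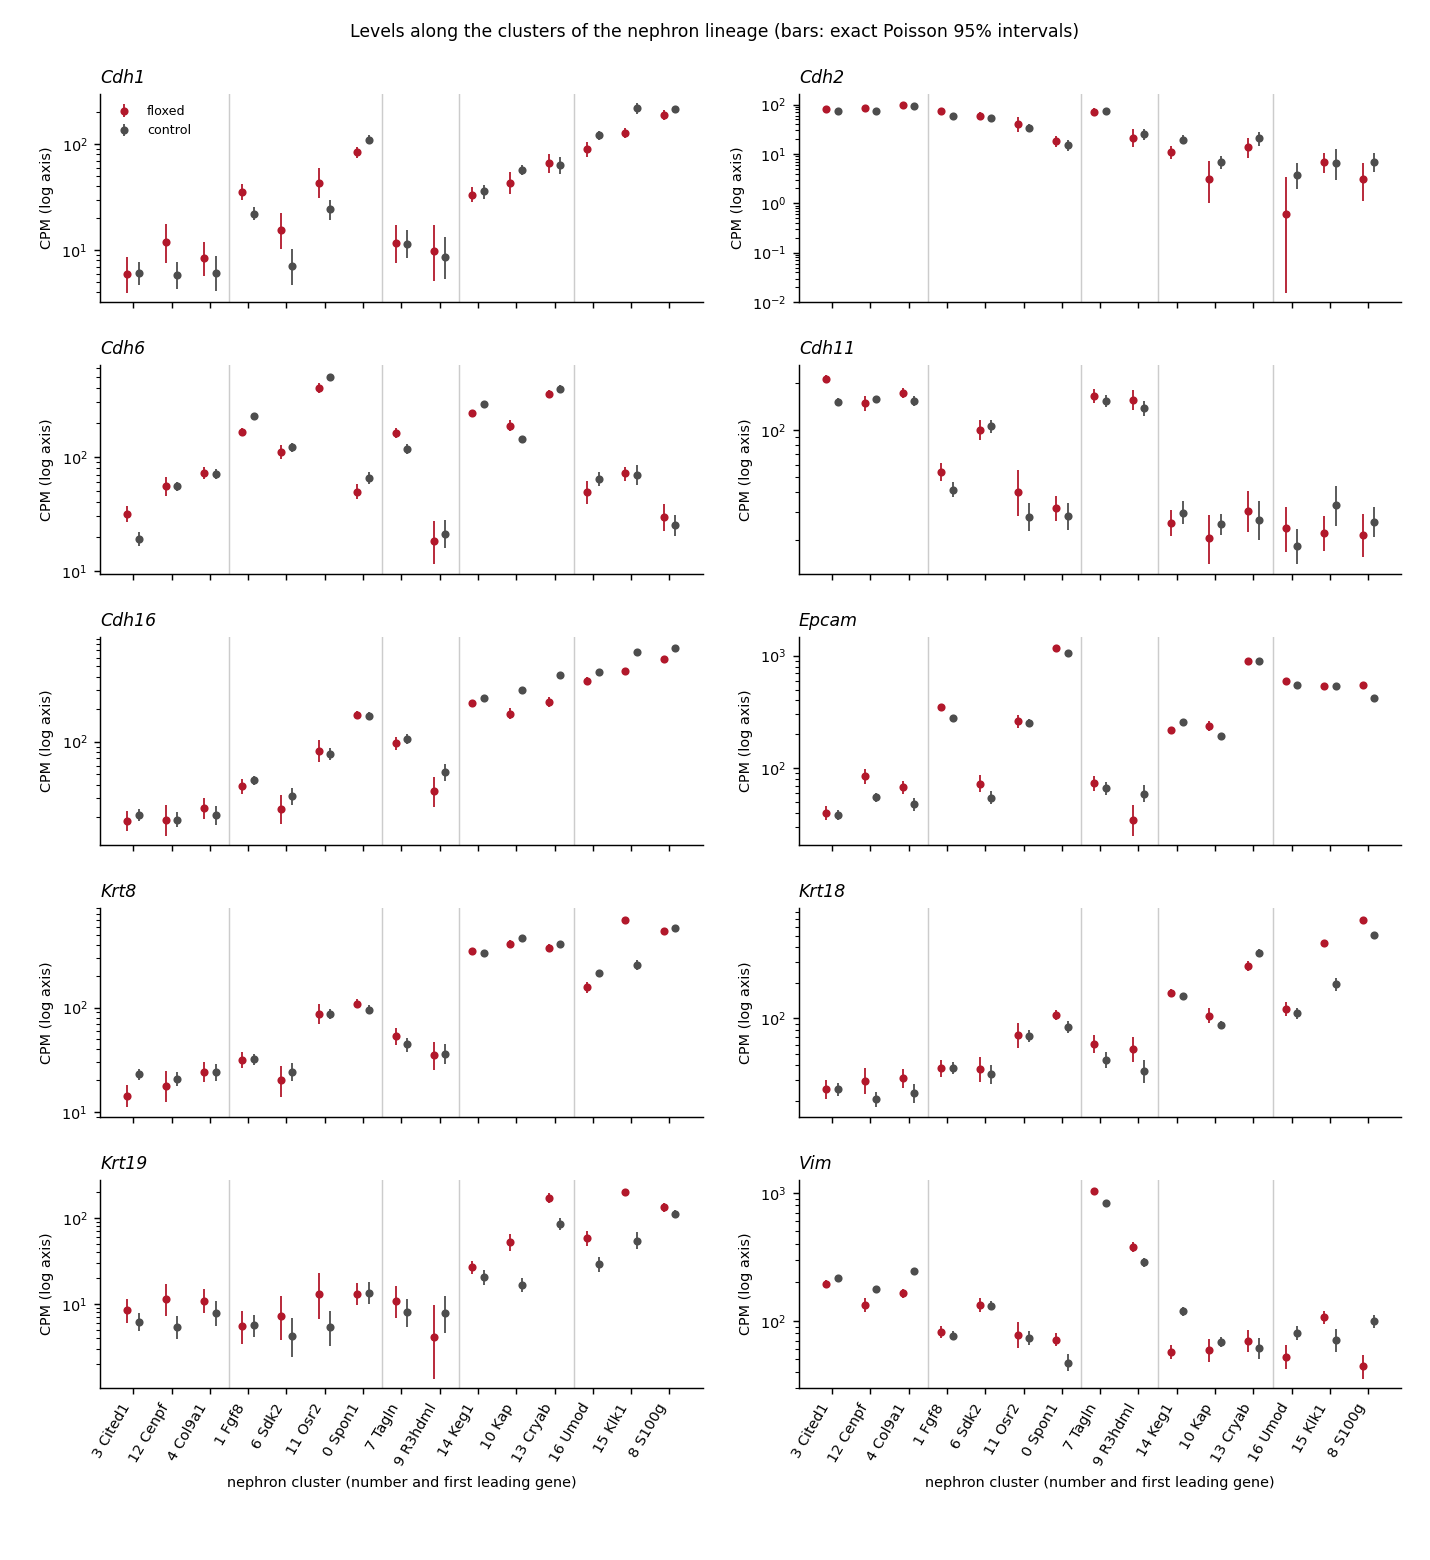
Level of each gene (CPM, log axis) in 15 of the 16 nephron clusters with at least 50 cells in both libraries (cluster 5 is not drawn), from progenitor clusters on the left through induced, podocyte-like and proximal tubule-like to distal clusters on the right; points are the floxed and control libraries and bars are exact Poisson 95% intervals. Epcam was highest in cluster 0, at 1181 and 1061 CPM in the floxed and control libraries, and Cdh6 in cluster 11, at 401 and 503 CPM.

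The next question was whether single cells held Epcam and Vim together. Each cell was thinned to 2000 UMIs, so that depth did not differ. With a UMI of Epcam were 44.3% of floxed cells (39.2 to 49.5; 166 of 375) and 38.1% of control cells (34.3 to 42.0; 237 of 622) in cluster 1, and 80.3% and 81.1% before thinning. In cluster 0 the thinned shares were 85.3% (324 of 380) in the floxed and 88.2% (225 of 255) in the control library. A UMI of Epcam was also found in 11.9% of floxed and 9.79% of control erythroid-like cells, whose median depths were 3951 and 4487 UMIs. Whether these UMIs came from free RNA was not tested.

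Both Epcam and Vim were found in 10.5% of floxed (7.63 to 14.1) and 9.80% of control (6.45 to 14.1) cells of cluster 0. The product of the separate shares was 10.8% in the floxed and 8.997% in the control library. In cluster 1 both were found in 5.07% of floxed and 4.98% of control cells, against products of 5.90% and 4.90%. Each product lay within the interval of the share with both genes. Vim was found in 32.2% of floxed and 30.1% of control erythroid-like cells, above its share of 12.6% and 10.2% in cluster 0. Whether the UMIs of Vim in either group came from free RNA was not tested.

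**Figure D3:**
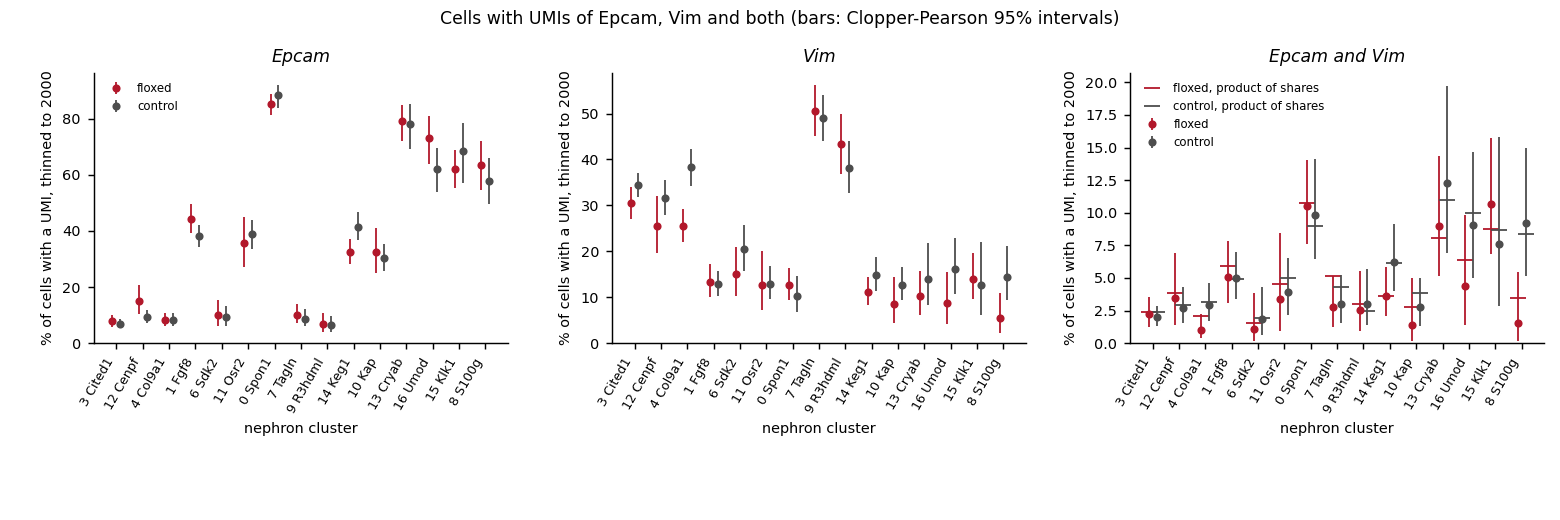
Share of cells (percent) with a UMI of Epcam, of Vim and of both, after thinning to 2000 UMIs per cell, in the same 15 nephron clusters of the floxed and control libraries; bars are Clopper-Pearson 95% intervals and dashes in the panel for both genes are products of the separate shares. In cluster 0 the share with both was 10.5% in the floxed and 9.80% in the control library, beside products of 10.8% and 8.997%.

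Podocyte-like cells had less Epcam and Cdh1 and more Vim and Cdh11 than committed cells. In floxed podocyte-like cells Epcam was 7.66-fold lower (6.70 to 8.79) and Cdh1 3.60-fold lower (2.53 to 5.27) than in floxed committed cells, and Vim was 8.89-fold higher (8.18 to 9.68) and Cdh11 2.98-fold higher (2.61 to 3.39). In the control library Epcam was 4.57-fold lower (4.18 to 5.01) and Cdh1 2.42-fold lower (1.91 to 3.10), and Vim was 7.11-fold higher (6.69 to 7.56) and Cdh11 2.43-fold higher (2.22 to 2.67). In all, 2 genes were higher and 2 lower of 9 in the floxed library, and 3 higher and 3 lower of 9 in the control library, where Cdh16 and Cdh6 also passed. Of all genes, 22.3% passed in the floxed and 24.8% in the control library. Epcam in podocyte-like cells, at 66.9 and 70.8 CPM in the floxed and control libraries, lay under the erythroid-like level. The class is not made of the same cells in both libraries: cluster 25 held 13 floxed and 312 control cells.

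Proximal tubule-like cells had more Cdh16, Krt8 and Krt18 than committed cells, and less of Cdh2 and Cdh11. Of 10 genes measured in the floxed library 5 were higher and 2 lower, and of 9 in the control library 4 were higher and 2 lower, while 28.9% and 31.2% of all genes passed in the floxed and control libraries. Krt8 was 8.14-fold higher (7.36 to 9.03) in floxed and 5.98-fold higher (5.57 to 6.41) in control proximal tubule-like cells. Cdh16 was 3.99-fold (3.57 to 4.46) and 4.74-fold (4.40 to 5.12) higher in the floxed and control libraries. Cdh2 was 4.36-fold lower (3.54 to 5.41) in the floxed and 2.68-fold lower (2.33 to 3.09) in the control library. Cdh6 stood at 257 and 276 CPM in floxed and control proximal tubule-like cells, the highest of the named classes, while Epcam did not pass against committed cells in either library.

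Cells of the loop and distal class had more Cdh1 and less Cdh6 than committed cells. Here 5 genes were higher and 4 lower of 10 in the floxed library and 6 higher and 3 lower of 10 in the control library, beside 29.7% and 33.5% of all genes. Cdh1 stood at 132 CPM in floxed and 169 CPM in control cells of this class, 3.56-fold (3.12 to 4.08) and 6.28-fold (5.64 to 7.01) the committed level. Cdh16 stood at 432 and 543 CPM in the floxed and control libraries. Cdh6 was 2.71-fold lower (2.42 to 3.04) in the floxed and 3.97-fold lower (3.61 to 4.37) in the control library. In proximal tubule-like cells Cdh1 stood at 43.5 and 46.1 CPM in the floxed and control libraries. Cdh6 was thus higher in the proximal and Cdh1 in the distal class, with Poisson intervals that did not overlap in either library.

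Ureteric bud and collecting duct-like cells held the epithelial genes and little of the mesenchymal cadherins. Against progenitor-like cells 6 genes were higher and 4 lower of 10 in each library, and 29.2% of all genes passed in the floxed and 27.4% in the control library. Against stroma-like cells 6 were higher and 2 lower of 8 in each library, beside 34.4% and 32.8% of all genes. Epcam stood at 1113 and 1007 CPM in floxed and control ureteric and collecting duct cells, against 35.8 and 33.1 CPM in stroma-like cells, ratios of 31.1 (28.8 to 33.8) and 30.4 (28.6 to 32.5). Krt19 stood at 223 and 224 CPM, against 6.29 and 6.35 CPM in stroma-like cells. Cdh11 was 21.6-fold lower (19.1 to 24.6) than in stroma-like cells of the floxed library and 20.1-fold lower (17.9 to 22.6) in the control library. The intervals of the floxed and control ratios overlapped for Epcam and Cdh11. Against progenitor-like cells, 19 of 24 measured junction and polarity genes were higher in the floxed and 19 of 23 in the control library, as were all 7 measured epithelial regulators in each. Of the mesenchymal list, 9 of 10 were lower in the floxed and 8 of 9 in the control library.

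The class was made of a cluster led by genes that included Rprm and Ret, a receptor gene of ureteric bud tips, and a cluster led by the water channel gene Aqp2. Krt19 stood at 333 CPM in floxed and 390 CPM in control cells of the Aqp2-led cluster, and at 70.0 and 58.9 CPM in the Ret cluster. Cdh16 followed the same order, at 721 and 822 CPM in the Aqp2-led cluster and 345 and 333 CPM in the Ret cluster. Epcam ran the other way, at 859 and 633 CPM in the Aqp2-led cluster and 1466 and 1381 CPM in the Ret cluster. Krt18 stood at 1324 and 1039 CPM in the Aqp2-led and 634 and 529 CPM in the Ret cluster of the floxed and control libraries. Within this lineage Epcam was thus higher in the bud cluster, and the keratins and Cdh16 in the duct cluster.

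In stroma-like cells Cdh11 stood at 506 CPM in the floxed and 413 CPM in the control library, and Vim at 714 and 712 CPM. Progenitor-like cells differed from stroma-like cells in their cadherins: Cdh2 was 5.97-fold higher (5.19 to 6.89) in floxed and 4.55-fold higher (4.13 to 5.01) in control progenitor-like cells, and Cdh6 3.38-fold (2.92 to 3.93) and 2.72-fold (2.44 to 3.03) higher. Cdh11 was 2.31-fold (2.22 to 2.41) and 2.39-fold (2.31 to 2.47) lower, and Vim 3.42-fold (3.28 to 3.57) and 3.00-fold (2.92 to 3.08) lower, in the floxed and control libraries. Of 6 genes measured, 2 were higher and 2 lower in each library, beside 19.6% and 20.0% of all genes. Both mesenchymal classes were thus told apart by Cdh2 and Cdh6 on one side and Cdh11 and Vim on the other. Among the 5 stroma-like clusters Vim ranged between 510 and 2185 CPM in the floxed and between 503 and 1924 CPM in the control library, and was highest in the cluster led by Postn, Lum and Fmo2.

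For each gene the 3 most similar genes over the 26 clusters were listed, among 8718 genes. For Epcam they were the claudin gene Cldn7 (0.97), Tmed6 (0.96) and Cldn3 (0.95), and for Cdh1 they were F2rl1 (0.99), Tmed6 (0.96) and Arhgef38 (0.95). For Cdh16 they were Pdzk1ip1 (0.98), Tfcp2l1 (0.96) and Krt8 (0.96), and for Krt8 they were Pdzk1ip1 (0.97), Cldn7 (0.96) and Cdh16 (0.96). For Krt18 they were Krt8, Bspry and Pdzk1ip1, each at 0.96, and for Krt19 they were Elf3, Ugt8a and Krt8, each at 0.93. For Cdh6 they were Clec18a (0.86), Slc37a4 (0.85) and Osr2 (0.82), for Cdh2 Gxylt2 (0.91), Sulf1 (0.87) and Hoxc4 (0.87), for Cdh11 Igdcc4 (0.94), Mrc2 (0.93) and Nkain4 (0.93), and for Vim Arrb1, Itpripl2 and Msrb3, each at 0.89. These are Pearson correlations of log2(CPM + 1) over clusters that share libraries, given as a description. Cdh6 and Cdh1, both higher after commitment, correlated at only 0.28.

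The second comparison asked how the genotypes differed. Most of the 10 genes stood at similar levels in both libraries, and 3 differences in the main classes passed the rule, all of them higher in the floxed library: Epcam in committed cells, and Krt18 and Krt19 in proximal tubule-like cells. The Krt18 difference rests on 22 floxed cells whose markers go against the name of that class. In committed cells 1 of 9 measured genes passed, beside 2.10% of all genes, and in proximal tubule-like cells 2 of 9, beside 4.14%. None passed in progenitor-like (6 measured, background 3.52%), podocyte-like (8, 2.82%), loop of Henle and distal tubule-like (8, 4.10%), ureteric bud and collecting duct-like (7, 4.28%) or stroma-like cells (4, 3.59%). The median log2 ratio of the measured genes was 0.24 in progenitor-like, 0.04 in committed, 0.21 in podocyte-like and -0.04 in proximal tubule-like cells, beside 0.04, 0.00, 0.00 and -0.02 for all genes of those classes. In stroma-like cells it was 0.14, beside 0.00.

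**Figure D4:**
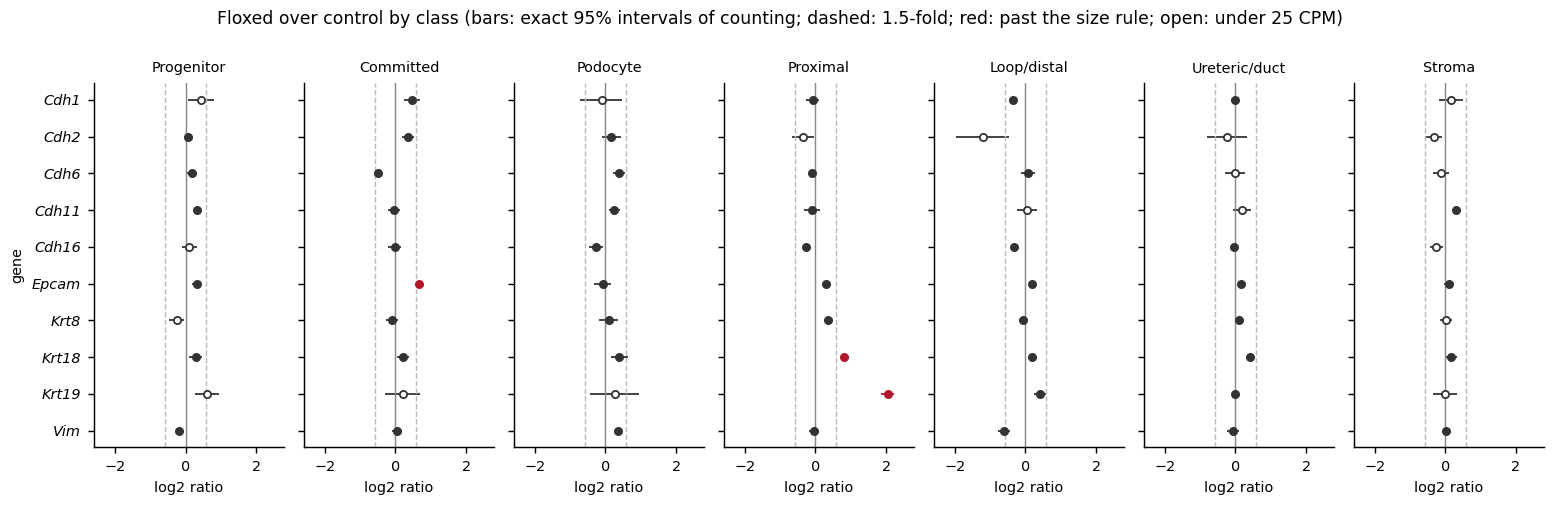
Log2 ratio of the floxed over the control library for each gene in 7 classes, with exact 95% intervals; red points passed the rule of size, open points stayed under 25 CPM in both libraries, and dashed lines mark 1.5-fold. The 3 red points are Epcam in committed nephron-like cells (0.66) and Krt18 (0.80) and Krt19 (2.04) in proximal tubule-like cells.

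Epcam in committed cells stood at 512 CPM in the floxed library (3931 UMIs), against 324 CPM in the control library (5018 UMIs), a ratio of 1.58 (1.52 to 1.65). On the log2 scale the ratio was 0.66, and it exceeded that in stroma-like cells by 0.55 (0.40 to 0.71). The committed class had a different make-up in the libraries: the Epcam-high nephron cluster 0 gave 24.4% of its floxed cells (191) and 13.2% of its control cells (151). With the clusters weighted as in the control library, the floxed level was 410 CPM, against 324 CPM, a ratio of 1.27 that no longer passed. Within cluster 1 the ratio was 1.24 (1.16 to 1.32) and within cluster 0 it was 1.11 (1.07 to 1.16). Ureteric bud and collecting duct markers summed to 849 CPM in floxed and 666 CPM in control committed cells, higher for 7 of 9 genes with none at 0. In cluster 0 itself they summed to 1788 and 1706.5 CPM in the floxed and control libraries. Without the cells that held any UMI of these markers, which left 49 floxed and 60 control cells, the Epcam log2 ratio was -0.23 and did not pass. The lower bound of the ratio lay close to the 1.5-fold limit, and the difference passed under 7 of 18 alternative settings.

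Cdh6 in committed cells ran the other way, at 143 CPM in the floxed and 200 CPM in the control library, 1.40-fold lower (1.308 to 1.504), and did not pass the rule. With the control make-up the log2 ratio was -0.30, against -0.49 as measured. In cluster 1 it was 1.36-fold lower (1.249 to 1.49), and in cluster 11 it stood at 401 CPM in the floxed and 503 CPM in the control library.

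Krt19 in proximal tubule-like cells stood at 91.2 CPM (84.9 to 97.8) in the floxed library, against 22.2 CPM (20.0 to 24.6) in the control library, a ratio of 4.11 (3.63 to 4.66). Krt18 stood at 228 CPM (218 to 238), against 131 CPM (125 to 136), a ratio of 1.74 (1.64 to 1.85). Krt8, at 448 and 353 CPM in the floxed and control libraries, did not pass. The Krt18 difference exceeded that in stroma-like cells by 0.64 (0.46 to 0.82) on the log2 scale. The ureteric and collecting duct markers summed to 457 CPM in floxed and 343 CPM in control proximal tubule-like cells, higher for 4 of 9 genes. Without the cells that held any UMI of these markers, which left 144 floxed and 168 control cells, the Krt19 log2 ratio was 0.96, against 2.04 over all cells, and did not pass.

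A small group of cells held much of this keratin RNA. Of the floxed proximal tubule-like cells, 22 fell into nephron cluster 15, which was led by the loop genes Klk1, Pappa2 and Slc12a1, and no control proximal tubule-like cell did. Their markers went against the class name: proximal tubule markers summed to 28.8 CPM in them (14.4 to 51.6), with 5 of 10 genes at 0, against 3237 CPM in the other floxed cells of the class. Ureteric and collecting duct markers summed to 1967 CPM, against 387 CPM in those other cells, and loop and distal markers to 301 CPM, against 254 CPM. Over all floxed cells of cluster 15 the ureteric and collecting duct markers summed to 2853 CPM, so their sum does not separate duct from distal nephron cells. These 22 cells were deep, with a median of 16224.5 UMIs, and each held UMIs of all 3 keratins: 10 to 217 of Krt8 with a median of 35, 1 to 113 of Krt18 with a median of 16, and 2 to 86 of Krt19 with a median of 9.5. Krt8 stood at 2740 CPM in them, Krt18 at 1635 CPM and Krt19 at 859 CPM. They made up 2.45% of the floxed class and held 27.1% of its Krt8, 31.8% of its Krt18 and 41.7% of its Krt19 UMIs. The genes that led them over other floxed nephron cells, listed after their values were seen, were S100a6, Krt19, S100a7a, Krt8, Gdf15, Sfn and Krt7, and Vim stood at 490 CPM. Doublets that the score missed could not be told apart from single cells here.

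Without these 22 cells Krt19 stood at 55.6 CPM in floxed proximal tubule-like cells, against 22.2 CPM in the control library, a ratio of 2.51 (2.18 to 2.88) that still passed. Krt18 stood at 162 CPM, against 131 CPM, a ratio of 1.24 (1.16 to 1.33) that did not pass. Krt8 stood at 342 CPM, against 353 CPM. With the control make-up of nephron clusters the ratio was 2.22 for Krt19 and 0.987 for Krt18. Cluster 13 gave 17.5% of the floxed and 8.31% of the control class (157 and 106 cells). Its proximal tubule markers summed to only 232 and 312 CPM. Its loop and distal markers summed to 509 and 437 CPM, and its ureteric and collecting duct markers to 593 and 600 CPM. Floxed cells of cluster 13, 157 of 170 from this class, held 255 UMIs of Krt19, against 458 in the floxed class without the 22 cells. Over the 18 alternative settings the Krt19 difference passed under 17 and the Krt18 difference under 5. Krt7, a related keratin named here after its values were seen, stood at 77.5 CPM in the floxed and 24.2 CPM in the control class, and at 32.2 CPM in the floxed class without the 22 cells.

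**Figure D5:**
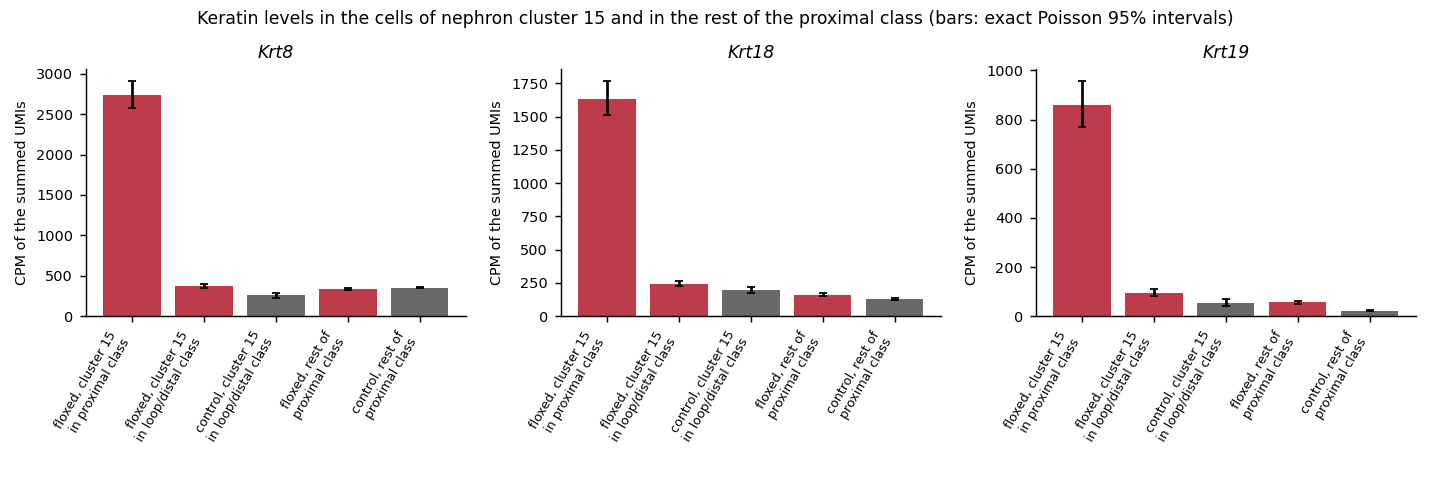
Level (CPM) of Krt8, Krt18 and Krt19 in groups of floxed and control tubule cells, with the 22 cells that nephron cluster 15 shares with the proximal tubule-like class shown apart; bars start at 0 and lines are exact Poisson 95% intervals. The 22 cells, all from the floxed library, stood at 2740, 1635 and 859 CPM, above each of the other groups.

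The nephron clusters were compared between genotypes in the same way. Of 124 pairs of gene and cluster that reached 25 CPM in the 16 clusters, 5 were higher and 3 lower in the floxed library, beside 2.77% of all such pairs over all genes. All 5 higher ones were keratins of tubule clusters. In cluster 15 Krt8 stood at 700 CPM in floxed and 257 CPM in control cells, a ratio of 2.73 (2.43 to 3.06), Krt18 was 2.25-fold (1.97 to 2.57) and Krt19 3.66-fold (2.88 to 4.72) higher. With only the loop and distal tubule-like cells of that cluster (184 floxed and 81 control cells), the ratios were 1.46 (1.29 to 1.66) for Krt8, 1.26 (1.09 to 1.47) for Krt18 and 1.75 (1.34 to 2.30) for Krt19, and none passed. Krt19 was also higher in cluster 10, led by Kap and Fbp1, at 52.4 CPM in floxed and 16.9 CPM in control cells (3.11, 2.32 to 4.14), and in cluster 13, led by Cryab and Serpina6, at 173 and 85.5 CPM (2.02, 1.65 to 2.48). Cluster 14 gave the most cells of the proximal tubule-like class, 433 floxed and 366 control. There Krt19 stood at 26.8 and 20.4 CPM in the floxed and control libraries (1.31, 0.995 to 1.73) and did not pass. Ureteric and collecting duct markers summed to 259 and 235 CPM in cluster 10 and to 593 and 600 CPM in cluster 13 of the floxed and control libraries. Intercalated cell markers of the collecting duct summed to 3.08 and 12.8 CPM in cluster 10 and to 44.0 and 7.63 CPM in cluster 13, and their part in the Krt19 values was not tested.

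Cells rich in keratin were also counted, as those with at least 5 UMIs of Krt8, Krt18 and Krt19 together among 2000. In cluster 15 they were 29 of 206 floxed cells, 14.1% (9.64 to 19.6), and 1 of 79 control cells, 1.27% (0.0320 to 6.85). In the whole proximal tubule-like class they were 34 of 867 floxed cells, 3.92% (2.73 to 5.44), and 27 of 1230 control cells, 2.20% (1.45 to 3.18). No erythroid-like cell was as rich, among 345 floxed and 143 control cells. The intervals of the proximal tubule-like shares overlapped, while those of cluster 15 did not. Outside the nephron lineage, 273 of 979 floxed ureteric bud and collecting duct-like cells were as rich, 27.9% (25.1 to 30.8). In the control library 167 of 829 cells of that class were, 20.1% (17.5 to 23.0), and these intervals did not overlap either. The floxed cells of cluster 15 and of the proximal tubule-like class both include the 22 deep cells described above. How many of the rich cells were among those 22 was not counted, so the cluster 15 share is not a separate result.

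The 3 lower pairs were Cdh16 in cluster 13 and Vim in clusters 8 and 14. Cdh16 stood at 233 CPM in floxed and 411 CPM in control cells of cluster 13, 1.76-fold lower (1.55 to 2.00). It was lower in the floxed library in each of 6 tubule clusters (14, 10, 13, 16, 15 and 8), and only cluster 13 passed. The factors lay between 1.13 (1.03 to 1.22) in cluster 14 and 1.76 in cluster 13. In cluster 10, led by mature proximal tubule genes, it stood at 181 CPM in floxed and 302 CPM in control cells, 1.67-fold lower (1.48 to 1.89). These 6 leave out clusters 0 and 11, which also hold tubule-like cells, and cluster 0 held 177 and 172 CPM of Cdh16. Stroma-like cells held 20.1 CPM in the floxed and 24.0 CPM in the control library, both under 25 CPM. The Cdh16 log2 ratio differed from that in stroma-like cells by -0.02 (-0.22 to 0.18) in the proximal tubule-like class. In the loop and distal class it differed by -0.07 (-0.26 to 0.12).

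Vim stood at 44.0 CPM in floxed and 99.02 CPM in control cells of cluster 8, led by S100g and Atp6v1g3, 2.25-fold lower (1.77 to 2.89). In cluster 14, led by Keg1 and Sult1d1, it stood at 57.1 and 118 CPM in floxed and control cells, 2.07-fold lower (1.78 to 2.41). Markers of cells that hold much Vim moved the same way. Stroma markers summed to 123 CPM in floxed and 175 CPM in control cells of cluster 8, higher in the floxed library for 1 of 8 genes, and endothelium markers to 65.0 and 262 CPM, higher for 0 of 7. In cluster 14 the sums were 125 and 227 CPM for stroma and 70.1 and 118 CPM for endothelium, and their part in the Vim values was not tested.

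Outside the nephron lineage none of the 10 genes passed in the ureteric and duct-like or the stroma-like class. Krt18 in the ureteric and duct-like class stood at 1035 CPM in the floxed and 784 CPM in the control library, a ratio of 1.32 (1.29 to 1.36). Epcam in the Aqp2-led duct cluster was 1.36-fold higher (1.31 to 1.41) in the floxed library. In stroma-like cells Cdh11 stood at 506 and 413 CPM and Vim at 714 and 712 CPM in the floxed and control libraries.

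In the smaller classes 1 of 7 measured genes passed in neutrophil-like cells (background 2.10%), where Epcam was higher at 32 floxed and 9 control UMIs, and 1 of 7 in lymphocyte-like cells (2.92%), where Cdh6 was lower at 5 floxed and 28 control UMIs. None passed in mural and renin-like (8 measured, background 1.55%), endothelium-like (6, 3.17%), macrophage-like (6, 5.41%) or erythroid-like cells (7, 2.38%). Vim stood at 1282 and 944 CPM in mural and renin-like cells and at 1222 and 1023 CPM in endothelium-like cells of the floxed and control libraries.

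The other genes of the transition were compared between genotypes in the same way. Of the 28 junction and polarity genes none passed in progenitor-like (8 measured, background 3.52%), committed (16, 2.10%), ureteric bud and collecting duct-like (24, 4.28%) or stroma-like cells (8, 3.59%). Cldn3 passed in proximal tubule-like cells (1 of 18, background 4.14%) and Cldn8 in the loop and distal class (1 of 23, background 4.10%). The epithelial regulators gave none. Among the 15 mesenchymal regulators and matrix genes, 2 of 10 measured passed in progenitor-like cells, 2 of 12 in the stroma-like class and 1 of 5 in the ureteric and duct-like class, beside 3.52%, 3.59% and 4.28% of all genes. Snai2, which encodes a Snail-family repressor, was higher in floxed progenitor-like cells, at 31.2 CPM, against 16.7 CPM in the control library, 1.87-fold (1.63 to 2.13). The intermediate filament gene Nes was 1.78-fold lower (1.64 to 1.93) in floxed progenitor-like cells, at 58.6 and 104 CPM in the floxed and control libraries. Nes was also 1.89-fold lower (1.67 to 2.14) in floxed stroma-like cells, where the mesenchymal homeobox gene Prrx1 was 2.01-fold higher (1.76 to 2.28). Col1a1 was 1.76-fold lower (1.53 to 2.02) in floxed ureteric and duct-like cells, at 26.3 and 46.2 CPM in the floxed and control libraries. Stroma markers summed to 121 and 165 CPM in the same cells, higher in the floxed library for 2 of 8 genes. Their part in the Col1a1 values was not tested. The list's median log2 ratio was 0.00 in progenitor-like cells, and it was -0.02 in the stroma-like class.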

How the data were processed

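Gene by barcode matrices of whole newborn kidneys were deposited by the authors, 1 per library, as whole-number UMI counts that are not normalised. Per the labels' protocols, 10000 cells per library were loaded with 3′ version 3 chemistry. Alignment and counting used Cell Ranger 6.0.2 and mm10, per the submitters' processing notes, although version 6.0.1 stands in the matrices, per the file headers. Which annotation release was used is not given here. The 10 genes, the marker lists and the gene lists were chosen with earlier results of these data known.

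A barcode was kept if it held 1000 UMIs or more, 500 genes or more and less than 15% mitochondrial UMIs. The automatic doublet threshold of scrublet (scanpy 1.11.5) marked 0 floxed and 2228 control barcodes, so the top 8% by score were left out per library (1252 floxed and 1695 control). Cells of the 2 libraries were clustered jointly, with no batch correction, on 2000 variable genes that left out the 10 genes, the gene lists and mitochondrial, ribosomal, haemoglobin and sex-linked genes, with 30 principal components, 15 neighbours and Leiden resolution 1 (igraph 0.11.9). A cluster took the name of the marker list with the highest mean log2 ratio, if that was at least 0.5. Where the next list also reached 0.5, the highest had to lie 0.5 above it. Stroma-like cluster 5 was named at 0.569, against 0.395 for the next list. At least 3 markers had to be detected. Shallow clusters needed a score of 2, which was set after the clusters were seen, and the intercalated and ureteric lists did not compete with each other. Of 26 clusters, 2 stayed unnamed (10 and 14). Nephron progenitor-like cluster 7 also scored for stroma (1.361 against 0.606).

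For each class, UMIs of a library were summed and expressed as CPM, with exact Poisson intervals for a level, exact conditional binomial intervals for a ratio and Clopper-Pearson intervals for a share. Intervals of differences between log2 ratios use the normal approximation for counts. Cells are not replicates, so no p-values are given. The rule of size asked for 25 CPM and an interval beyond 1.5-fold, and the background is the share of all genes reaching 25 CPM that passed it. Genes named from the lists passed it in progenitor-like, committed, ureteric or stroma-like cells, and the 3 most similar genes were named for each of the 10. Tools were matplotlib 3.10.9, pandas 2.3.3, scipy 1.17.1, numpy 2.4.6 and Python 3.11.15. Promoter windows are RefSeq's, on GRCm38.p6. Steps were tested on simulated data. Values of some listed genes are not reported here.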

Additional observations from a re-analysis of the deposited data

How the results depend on the processing

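The count of the 10 genes that passed between genotypes in committed nephron-like cells was 1, Epcam. It was 0 with the looser or stricter cell filter, the 10000 deepest barcodes, no doublet removal, 16% removed as doublets, the 10 genes kept in clustering, TMM scaling, cycling cells left out, a limit of 2-fold, or the nephron cluster make-up held. It was 3 at Leiden resolution 2, where Epcam did not pass, and 2 with a lower limit on the fold, which also gave 1 in place of 0 in the ureteric and duct-like class. The step between committed and progenitor-like cells gave 5 in place of 8 genes (floxed) and 5 in place of 9 (control) with the stricter filter. It gave 3 and 5 when cells with any UMI of a ureteric or collecting duct marker were left out, which kept 49 floxed and 60 control committed cells. Without those cells the Epcam log2 ratio in committed cells was -0.23, and with the make-up held the Krt18 log2 ratio in proximal tubule-like cells was -0.019. The causes of these shifts were not tested.

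Over its alternatives the log2 ratio of Epcam in committed cells lay between -0.23 and 0.85, and that of Krt19 in proximal tubule-like cells between 0.93 and 2.06. All 17 alternatives kept the direction of each counted difference between committed and progenitor-like cells, and those of Cdh6 and Epcam passed in all 17 in both libraries. Leaving out single clusters, the cells with ureteric markers or the 22 cells of cluster 15, and holding the make-up, were chosen after seeing the data. No paired analysis was possible because each genotype has 1 library. With 1 library per genotype, genotype and library cannot be told apart, and the intervals cover counting error only. Differences of genes under 25 CPM in both libraries were not read.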

Other observations

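The 5 genes that follow come from the gene lists, lie outside the rule for named genes and were chosen after their values were seen. Of all genes, 2.82% passed the rule of size in podocyte-like cells, 4.10% in the loop and distal class and 4.14% in proximal tubule-like cells. Krt7, a keratin of ducts, was lower in floxed podocyte-like cells, at 38.3 CPM, against 73.7 CPM in the control library, 1.92-fold (1.59 to 2.35). In the same class Tnc, which encodes the matrix protein tenascin-C, was higher, at 28.3 and 13.8 CPM in the floxed and control libraries, a ratio of 2.05 (1.54 to 2.74). The claudin gene Cldn8, a tight junction gene of distal segments, was 2.16-fold lower (1.963 to 2.37) in floxed cells of the loop and distal class, at 76.2 and 164 CPM. Cldn3 was 1.95-fold higher (1.70 to 2.23) in floxed proximal tubule-like cells, at 48.5 and 24.9 CPM, where Col1a2 was 1.71-fold lower (1.54 to 1.91), at 50.7 and 86.7 CPM. Stroma markers summed to 134 and 187 CPM in floxed and control proximal tubule-like cells, higher in the floxed library for 2 of 8 genes. Their part in the Col1a2 values was not tested. The podocyte-like values include cluster 25, which held 13 floxed and 312 control cells. Its part in the Krt7 and Tnc values was not tested.

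Cluster 10, which scored for both stroma and mural markers and was led by Nts, Nrxn3 and Tagln, stayed without a name. Its 1171 floxed and 1582 control cells held 952 and 1074 CPM of Vim and 531 and 486 CPM of Cdh11, with 48.6 and 47.6 CPM of Epcam.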
